A study of Caenorhabditis elegans with 2 samples.

Results

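The sites described here are 234 places in the Caenorhabditis elegans nuclear genome with strong FLH-1 signal. Each lay in the promoters of protein-coding genes on both strands at once. The list they come from, pooled over both replicates, holds both peaks and background. Only 31 of them were in the authors' smaller optimal set, so most are entries rather than established binding sites. All 234 were selected on pooled signal and position. Each was among the 4000 entries with the highest signal of the 30000 in the pooled list of both replicates. Its summit lay in the promoter of at least 1 plus-strand and at least 1 minus-strand protein-coding gene, and more than 100 bp from any annotated tRNA, snoRNA, snRNA or microRNA gene. A promoter was taken to start 1000 bp upstream of a gene's 5′ end in the annotation and to stop 200 bp downstream of it. The signal is the value that the authors' peak caller gave each entry, so the strength of the sites chose them, and it is given as a description.

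FLH-1 is a FLYWCH zinc-finger protein that binds DNA and is known for repressing microRNA genes in the C. elegans embryo. A divergent promoter is the stretch between neighbouring genes that are transcribed away from each other, from opposite strands, so that a single bound stretch lies upstream of both. Many C. elegans transcripts are trans-spliced to a leader, and the annotated 5′ end of such a gene is then the splice site, with the start of transcription further upstream.

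The data come from chromatin immunoprecipitation with sequencing (ChIP-seq) of 2 biological replicates of strain OP702. The worms carry the allele unc-119(tm4063) and the transgene wgIs702. The transgene joins unc-119(+), which restores unc-119, to a copy of FLH-1 tagged as flh-1::TY1::EGFP::3xFLAG, and the state of the endogenous flh-1 gene is not given. Whole embryos of mixed stage and pooled sex were collected by egg bleaching, with a labelled age of 2 hours, and sonicated chromatin was precipitated with an anti-GFP antibody. There was 1 group and so no contrast between conditions, and the control experiment named in the labels was not analysed here.

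Lists of entries that mix peaks and background were deposited for the pooled replicates and for each replicate. An optimal set held 371 entries, which were the 371 strongest pooled ones. Read depths and the scaling of the signal are not in the files, and signals ran higher in replicate 1 than in replicate 2, so the replicates are compared by rank. Each replicate's reads are also part of the pooled list, so a match in a replicate is not independent of the choice of sites. Intervals below are exact 95% Clopper-Pearson intervals, which treat sites as independent and cover counting error only.

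The DNA under the strongest sites is shown first, because many of them hold the same arrangement of letters close to the summit: GCGG, then 6 bases, then TGC. The arrangement was found in these same sites, as described further on. The stretches below come from the reference genome in build WBcel235 (ce11), each 49 bases read 5′ to 3′ on the strand that carries the arrangement, with GCGG and TGC in capitals. Names give the nearest minus-strand gene and then the nearest plus-strand gene. None of the printed stretches overlaps an annotated exon.
ears-2/uncp-18, chrIV:390495-390543, minus strand: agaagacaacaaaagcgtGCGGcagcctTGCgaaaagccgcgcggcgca
ecps-1/atx-2, chrIII:10461306-10461354, plus strand: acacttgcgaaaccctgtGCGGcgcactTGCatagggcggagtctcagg
mlcd-1/idhg-1, chrIII:4568708-4568756, plus strand: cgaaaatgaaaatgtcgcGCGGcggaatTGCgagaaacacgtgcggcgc
rnf-121/C16C10.4, chrIII:4171150-4171198, plus strand: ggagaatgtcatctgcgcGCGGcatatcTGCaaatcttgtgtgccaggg
nmad-1/hach-1, chrIII:5555099-5555147, plus strand: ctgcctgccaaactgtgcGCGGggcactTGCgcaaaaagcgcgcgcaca
B0495.9/sre-1, chrII:7708753-7708801, minus strand: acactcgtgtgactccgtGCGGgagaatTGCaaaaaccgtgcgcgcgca
pvf-1/Y39A3CL.7, chrIII:1824685-1824733, plus strand: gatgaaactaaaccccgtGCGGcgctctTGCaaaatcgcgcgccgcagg
gei-6/krr-1, chrV:7231033-7231081, minus strand: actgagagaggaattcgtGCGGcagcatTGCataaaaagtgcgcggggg
Y22D7AL.10/hsp-60, chrIII:1619079-1619127, plus strand: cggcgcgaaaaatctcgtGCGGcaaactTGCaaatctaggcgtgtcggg
ragc-1/Y24F12A.1, chrIV:11605079-11605127, minus strand: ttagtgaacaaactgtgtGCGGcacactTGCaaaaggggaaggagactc
A different spacing, with 4 bases between the parts, is shown in capitals in the next 81-base windows centred on the summit.
piit-1/sas-5, chrV:11610632-11610712, plus strand: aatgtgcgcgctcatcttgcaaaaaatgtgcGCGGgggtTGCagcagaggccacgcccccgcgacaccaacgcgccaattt
algn-13/R10D12.13, chrV:13962164-13962244, plus strand: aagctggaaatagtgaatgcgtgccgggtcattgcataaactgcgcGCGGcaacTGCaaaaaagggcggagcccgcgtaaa
Either spacing was present at 17 of the 31 sites in the optimal set, a lower share than among the stretches printed here. Strong sites with neither spacing are shown as 81-base windows on the plus strand.
K01G5.10/tasp-1, chrIII:10759180-10759260, plus strand: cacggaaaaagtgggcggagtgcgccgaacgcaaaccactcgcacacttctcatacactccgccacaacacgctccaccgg
rpl-15/K11H12.8, chrIV:654897-654977, plus strand: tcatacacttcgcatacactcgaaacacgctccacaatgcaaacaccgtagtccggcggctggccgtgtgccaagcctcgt

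The strongest of the sites lay between ears-2, which encodes a mitochondrial glutamyl-tRNA synthetase, and uncp-18. Its signal was 289 in the pooled list (rank 24), 194 in replicate 1 (rank 28) and 96.3 in replicate 2 (rank 31). The 5′ ends of these genes are 92 bp apart, and the summit lay 39 bp upstream of ears-2 and 53 bp upstream of uncp-18. The site was thus near the top of every list, in a very short gap.

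The site between ecps-1 and atx-2, the gene of the RNA-binding protein ataxin-2, was almost as strong. It had a pooled signal of 288 (rank 25), 205 in replicate 1 (rank 21) and 83.3 in replicate 2 (rank 47). Here the gap was 838 bp, and the summit lay 70 bp upstream of atx-2 and 768 bp upstream of ecps-1. The arrangement occurred 2 times within 50 bp of this summit.

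The next site lay between genes of metabolic enzymes. Between mlcd-1, a malonyl-CoA decarboxylase gene, and idhg-1, for a subunit of mitochondrial isocitrate dehydrogenase, the pooled signal was 270 (rank 36), with ranks 37 and 36 in replicates 1 and 2. At rank 68, between nmad-1, which encodes a DNA demethylase, and hach-1, of valine breakdown, it was 208, with ranks 63 and 87. The ranks of both sites in the replicates were close to each other.

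Another site of the strongest 12 lay beside rnf-121, a RING-finger gene (signal 220, rank 58). The site at spe-48, a sperm gene, had a signal of 198 (rank 80). A site 946 bp upstream of sre-1, a chemoreceptor gene, and nearer to B0495.9, had a signal of 197 (rank 83). The replicate ranks of these 3 sites were 51 to 72 in replicate 1 and 92 to 160 in replicate 2, so each was nearer the top in replicate 1.

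The site at sas-5, a centriole assembly gene, had a signal of 182 (rank 91), and the site at tasp-1, a taspase gene, 178 (rank 99). The last of the 12 were the histone pair his-67/his-68 (signal 165, rank 116) and the pair of dad-1, a subunit of oligosaccharyltransferase, and tre-1, a trehalase (signal 161, rank 122). All 12 were among the 371 strongest entries of both replicates, the lowest rank being 145 in replicate 1 and 160 in replicate 2. All 12 summits lay between the 5′ ends of the genes, and 8 of the 12 windows held the arrangement.

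Across the 234 sites the pooled signal ran from 47.04 to 289, with a median of 59.3 and quartiles of 52.2 and 76.1. The median was 55.1 over the 885 sites whose summit lay in promoters of a single direction, and 98.4 over the 358 at small RNA genes, where the strongest nuclear entries of the list were found. The divergent sites just inside the limit were those of cec-3/T09A5.15 (signal 47.2, rank 3949) and rpn-5/scc-1 (47.04, rank 3998). Those just outside were Y53G8AR.8/Y53G8AR.6 (46.9, rank 4065) and ddx-17/aip-1 (46.8, rank 4088).

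An entry with its summit within 100 bp was present in both replicate lists for 165 of the 234 sites, or 70.5% (64.2 to 76.3). The share was 64.8% over all 4000 strongest entries and 22.4% over all 30000 pooled entries, so the count is to be read against a high background. It was 62.7% (59.4 to 65.9) of the single-direction sites and 16.7% (14.1 to 19.6) of the 729 weaker pooled entries at divergent promoters. Of the remaining divergent sites, 55 were matched only in the replicate 1 list, 10 only in that of replicate 2, and 4 had no match.

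A stricter requirement was that the matching entry be among the 4000 strongest of its own replicate, in both replicates. It was met by 78 of the 234 sites, or 33.3% (27.3 to 39.8), against 19.8% of all 4000 entries and 16.3% (13.9 to 18.9) of single-direction sites. The optimal set held 31 of the sites, or 13.2% (9.18 to 18.3), against 9.28% of all 4000 and 8.14% (6.42 to 10.1) of the single-direction sites. Because ranks in the replicates follow the pooled rank, these shares depend on how the sites are spread over the list.

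The loose match was then counted within bands of pooled rank. Of the 31 sites in ranks 1 to 371, all 31 had a match in both replicates, against 94.1% of all entries of that band. The counts were 55 of 67 sites in ranks 372 to 1000 (82.1%, against 76.8%), 31 of 50 in ranks 1001 to 2000 (62.0%, against 63.8%) and 48 of 86 in ranks 2001 to 4000 (55.8%, against 56.1%). The stricter requirement was met by 30 of 31 sites in ranks 1 to 371 (96.8%, against 90.6% of all entries), 42 of 67 in ranks 372 to 1000 (62.7%, against 47.1%), 4 of 50 in ranks 1001 to 2000 (8.0%, against 13.1%) and 2 of 86 in ranks 2001 to 4000 (2.33%, against 1.40%).

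Among sites in any protein-coding promoter, divergent ones made up 30.1% (21.5 to 39.9) of ranks 1 to 371 and 34.9% (28.2 to 42.1) of ranks 372 to 1000. The share was 16.9% (12.8 to 21.7) in ranks 1001 to 2000 and 16.3% (13.2 to 19.7) in ranks 2001 to 4000. These shares are a description, since the rank is the value that chose the sites.

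**Figure D1:**
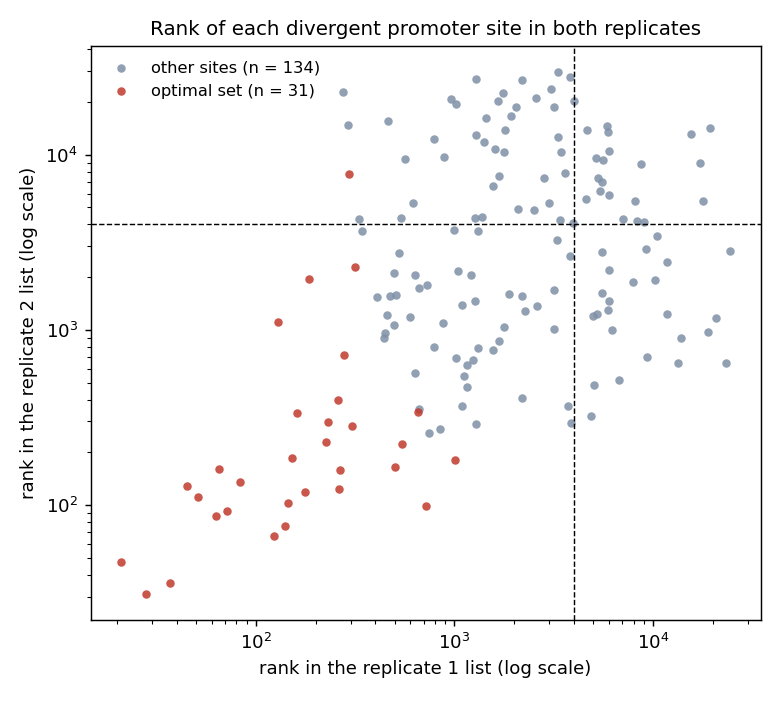
Rank of 165 divergent promoter sites in the replicate 1 list (horizontal, log scale) and the replicate 2 list (vertical, log scale), for the sites matched within 100 bp in both; red points are the 31 sites of the optimal set and dashed lines mark rank 4000. Sites of the optimal set lie toward the top ranks of both lists, and 78 points lie within rank 4000 in both.

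Among the 165 sites matched in both lists the median rank was 1568 in replicate 1 and 1870 in replicate 2, and 93 were ranked higher in replicate 1. The plot of replicate ranks shows a wide scatter below the optimal set. The largest disagreement was at W08E3.4/snr-2, a site beside a spliceosomal Sm protein gene, which ranked 3312 in replicate 1 and 29640 in replicate 2. The site at hpo-18/mcm-7, beside a replicative helicase gene, ranked 2176 and 26565. Across the sites, which share the same libraries, log2 signals in the replicates were related with r = 0.59 (Pearson) and rho = 0.42 (Spearman), and r was 0.54 without the 2 farthest sites.

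The nearest genes pointed away from each other at 232 of 234 sites (99.1%), which the rule nearly fixes, since the weaker entries at divergent promoters gave 99.2%. The sites fell on 221 distinct gene pairs, 12 of which had more than 1 site, so some sites share their target. Their promoters belonged to 454 genes, 2.27% of the 19973 nuclear protein-coding genes of the Ensembl annotation.

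The summit lay between the 5′ ends at 180 of the 234 sites, or 76.9% (71.0 to 82.2), against 66.0% (62.4 to 69.4) of the weaker entries at divergent promoters. It lay outside any protein-coding gene at 175 sites (74.8%, 68.7 to 80.2) and in a coding exon at 34 (14.5%, 10.3 to 19.7). Among the weaker entries those shares were 60.6% and 21.8%. Another 17 of the sites were in a non-coding part of an exon and 8 in an intron.

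The median distance from the summit to the nearer 5′ end was 132 bp, with quartiles of 70 and 232 bp, and it was also 132 bp for the weaker entries. The summit was within 100 bp of the nearer 5′ end at 88 sites (37.6%) and within 200 bp at 167 (71.4%). The nearer gene was on the plus strand at 111 sites and on the minus strand at the others, apart from 1 at equal distance. The interval of the plus-strand share (47.4%, 40.9 to 54.04) included equal sharing.

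**Figure D2:**
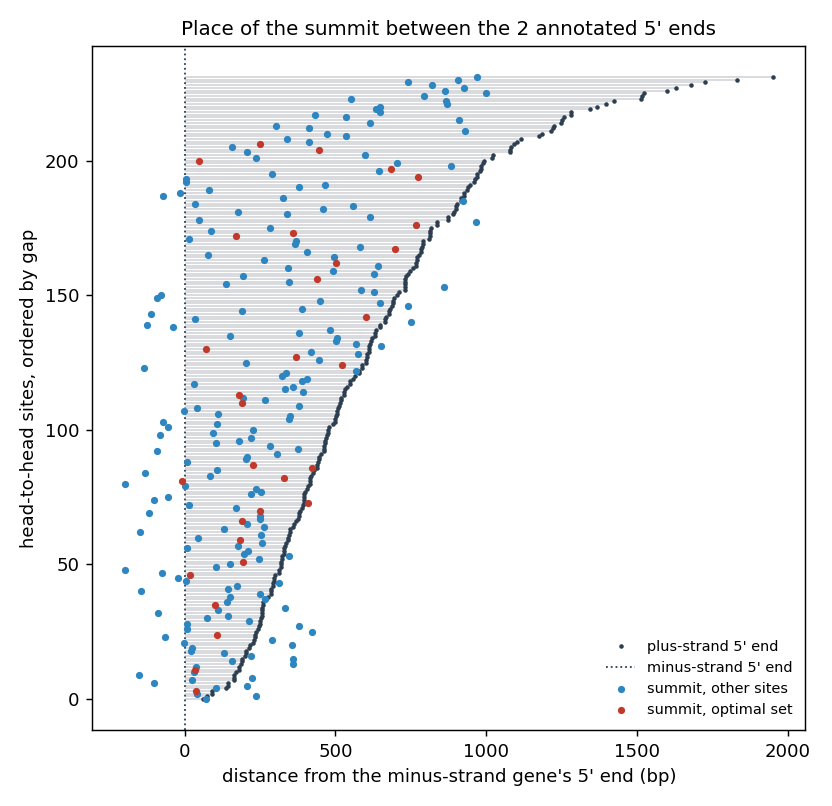
Place of the summit at the head-to-head sites with a gap above 0 bp, ordered by the gap between the annotated 5′ ends; the horizontal axis is the distance in bp from the minus-strand gene's 5′ end, dark points are the plus-strand 5′ ends, and coloured points are summits (red, optimal set; blue, other sites). Of all 234 sites, 180 summits lie between the 5′ ends, and the gaps reach 1951 bp.

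The gap between the 5′ ends had a median of 529.5 bp over the sites, 590 bp over the weaker entries and 678 bp over all 2560 head-to-head pairs with a gap of up to 2000 bp. A site lay at 217 of these pairs, or 8.48% (7.43 to 9.62). The share was 7.51% (28 of 373) for gaps of 1 to 250 bp, 13.4% (73 of 544) for 251 to 500 bp, 10.6% (88 of 828) for 501 to 1000 bp and 3.44% (28 of 815) for 1001 to 2000 bp. Weaker divergent entries had the same profile, at 20.1%, 33.3%, 29.1% and 13.1% of the pairs in the same order of gaps. The stretch that lies in both promoters, and so can hold a site at all, widens with the gap among short gaps and narrows among the longest, which affects these shares.

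The sites were unevenly spread over the chromosomes. Of the head-to-head pairs, 12.4% (9.42 to 15.9) had a site on chromosome I and 13.5% (10.3 to 17.3) on chromosome III. The shares were 7.30% on II, 7.05% on IV, 5.73% (4.09 to 7.78) on V and 5.06% (2.34 to 9.38) on X. A weaker divergent entry lay at 27.8% of the pairs on I and 30.1% on III. It did so at 23.0% on II, 23.6% on IV, 18.9% on V and 18.5% on X. Higher shares on I and III were thus not particular to the strong sites. Chromosome X held 9 of the 234 sites, or 3.85% (1.77 to 7.18), beside 6.95% of the head-to-head pairs. It held 200 of the 885 single-direction sites (22.6%), so the kinds of promoter sites differed in their share on X.

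Cytosolic ribosomal protein, splicing and chromatin regulator genes had a site more often than the background share, and chemoreceptor genes less often. For every other list with genes in such pairs the interval included the background. Most of the ribosomal protein, splicing and chromatin regulator sites ranked below the optimal set. Over all genes in head-to-head pairs, 8.52% (436 of 5120) had a site in the promoter, and this is the background for the counts that follow. A gene is counted when it has a site in its promoter, whichever of the genes the summit is nearer to, and neighbours can share a site. Genes that share a site are not independent, and the intervals are not adjusted for the 25 lists. The lists were chosen with earlier results of these data known, and the chemoreceptor list was corrected after its genes were seen. The shares by list are therefore a description.

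Cytosolic ribosomal protein genes had a site in 15 of the 49 in head-to-head pairs, or 30.6% (18.3 to 45.4), and in 15 of all 81 (18.5%). The 15 genes shared 13 sites, 10 of which were matched in both replicates and none of which held the arrangement. Over all 234 sites, 70.5% were matched in both replicates and only 11.5% held the arrangement, so few copies could be looked for at 13 sites. The ribosomal protein gene was the nearer gene for 9 of the 15. Only the sites of rpl-15 and rps-1 were in the optimal set. The signals of all 13 sites ran from 49.0 to 147.

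The strongest of them was the site 361 bp upstream of rpl-15, a gene of the large subunit. Its signal was 147 in the pooled list (rank 139), 87.6 in replicate 1 (rank 178) and 56.1 in replicate 2 (rank 119). At rps-1, of the small subunit, the pooled signal was 111 (rank 246), with ranks 261 and 398 in replicates 1 and 2. At rpl-7 it was 84.6 (rank 438, replicate ranks 1281 and 289), and at rpl-20 81.1 (rank 485, replicate ranks 1153 and 473). The weakest were rpl-4 and rpl-9, both with a signal of 49.0 and with no match in replicate 2.

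At a pair of places both neighbours encode ribosomal proteins. The site of rps-10/rpl-24.1 had a signal of 68.1 (rank 819) and was matched in replicate 1 alone, at rank 646. The site of rps-14/rpl-36 had a signal of 55.8 (rank 1894) and low ranks in both replicates, 17854 and 5462. These sites had weaker replicate support than those of rpl-15 and rps-1.

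Splicing genes had a site in 9 of 29 in head-to-head pairs, or 31.0% (15.3 to 50.8), at 8 sites. The splicing gene was the nearer gene for 4 of the 9. Only the site of snr-1 was in the optimal set. The site of snr-1, an Sm protein gene of the spliceosomal snRNPs, had a signal of 111 (rank 249), with ranks 716 and 99 in replicates 1 and 2. Its summit was nearer to snx-13 (70 bp) than to snr-1 (541 bp). The genes rsp-1 and rsp-2 encode SR proteins, which bind exons to direct splicing, and face each other across 407 bp. Their shared site had a signal of 86.4 (rank 413), with ranks 497 and 1070.

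Chromatin regulators had a site in 8 of 26 in head-to-head pairs, or 30.8% (14.3 to 51.8). Of these 8 sites 7 were matched in both replicates, beside 70.5% of all 234 sites. The chromatin regulator was the nearer gene at only 2 of the 8. The strongest was at mrg-1, a chromodomain gene needed in the germ line, with a signal of 84.5 (rank 439) and ranks 275 and 22948, and its summit was nearer to spcs-2 (124 bp against 251 bp). At lin-35, the retinoblastoma gene, the signal was 53.98 (rank 2203), but the summit was nearer to vps-51 (83 bp against 335 bp). At lin-54, a DNA-binding subunit of the DRM complex, the signal was 55.5 (rank 1937). The summit of the lin-54 site was nearer to its neighbour rpl-12, 13 bp upstream of it against 380 bp for lin-54. The pooled ranks of the 8 sites ran from 439 to 2834, so all of them lay below the optimal set.

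Histone genes had a site in 10 of 64 in head-to-head pairs, or 15.6% (7.76 to 26.9), an interval that includes the background. The genes encode core histones, and each site lay at a head-to-head pair of histone genes, so the 10 genes came from 5 pairs. The pair his-67/his-68 was ranked 141 and 76 in replicates 1 and 2. The pair his-59/his-60, across a gap of 257 bp, had 3 sites with signals of 82.9, 61.4 and 58.3, and only the middle one was matched in both replicates. Histone genes are near-identical copies, so the placement of reads among them is uncertain.

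Among chaperone genes the strongest site was at dnj-29, a DnaJ-domain gene, with a signal of 127 (rank 184) and ranks 129 and 1115 in replicates 1 and 2. At hsp-60, the mitochondrial chaperonin, the signal was 106 (rank 262), with ranks 306 and 282 in replicates 1 and 2, and the summit was 642 bp upstream, nearer to Y22D7AL.10 (171 bp). At atp-1, of the ATP synthase, it was 87.9 (rank 397), with ranks 508 and 1579. As lists, chaperones had 6 of 32 genes of head-to-head pairs with a site (18.8%, 7.21 to 36.4), mitochondrial ribosomal proteins 4 of 27 (14.8%, 4.19 to 33.7) and electron transport with ATP synthase 3 of 24 (12.5%, 2.66 to 32.4). These intervals all include the background.

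The same held for the proteasome and for translation factors, with 4 of 22 genes each (18.2%, 5.19 to 40.3), and for nuclear pore and transport genes, with 5 of 25 (20.0%, 6.83 to 40.7). The site at rpn-7, a lid subunit of the proteasome, had a signal of 93.3 (rank 346), with ranks 316 and 2285. Its summit lay in a non-coding part of an exon, 425 bp upstream of rpn-7 and nearer to F49C12.9. Of the 4 proteasome sites 1 was matched in both replicates (70.5% over all 234 sites), and the proteasome gene was the nearer gene for 1 of the 4. A site with a signal of 104.3 (rank 272, replicate ranks 501 and 164) lay in the promoters of rab-7, a GTPase gene of late endosomes, and mex-1, a maternal RNA-binding gene, but its summit was nearer to W03C9.5 (249 bp) than to either (862 bp and 844 bp). Of the cell cycle and replication genes, 2 of 29 had a site, cdk-9 (signal 114.7, rank 232), whose kinase acts in transcription elongation, and mcm-7.

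Chemoreceptor genes, the largest list, had a site in 4 of 282 in head-to-head pairs, or 1.42% (0.388 to 3.59), below the background. These were sre-1, sri-5, srh-2 and srh-16, and sri-5 had a signal of 115.1 (rank 230) with ranks 230 and 296 in replicates 1 and 2. Nuclear hormone receptors had 1 of 44 (2.27%, 0.0575 to 12.02), collagens 1 of 38 (2.63%, 0.0666 to 13.8) and C-type lectins 3 of 79 (3.80%, 0.790 to 10.7). No site was counted for the FLYWCH family, homeobox, bHLH or neurotransmission lists, but only 27 of their 239 genes are in head-to-head pairs, so few of them could have had one. The exact upper limit was 28.5% for the 11 homeobox genes in such pairs and 24.7% for the 13 of neurotransmission.

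**Figure D3:**
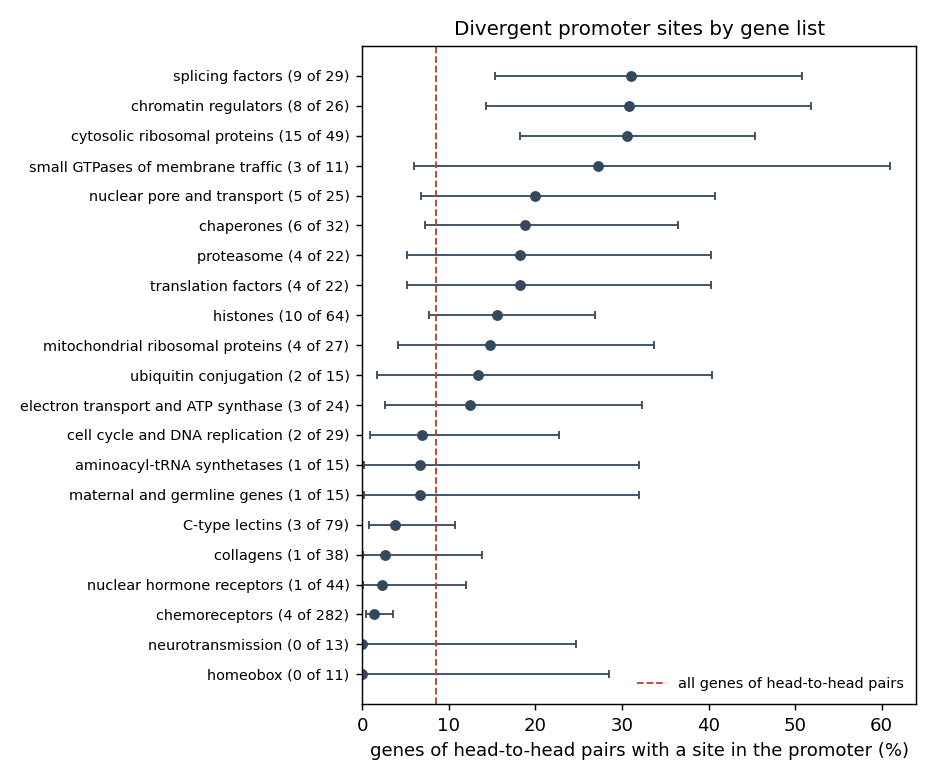
Percent of each list's genes in head-to-head pairs that had a divergent promoter site in their promoter, for the lists with at least 10 such genes; points are shares, bars are exact 95% intervals, numbers in brackets are genes with a site of genes in pairs, and the dashed line is the share over all genes of head-to-head pairs (8.52%). Splicing factors, chromatin regulators and ribosomal proteins lie above the line with their intervals, and chemoreceptors below it. The lists were chosen with earlier results of these data known, and the intervals are not adjusted for the number of lists.

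Base composition at the summit differed along the list. Within 50 bp of the summit, GC content averaged 44.3% ± 9.44 (SD, n = 234) at the divergent sites and 49.2% ± 8.96 (SD, n = 31) at those in the optimal set. It was 44.8% ± 9.85 (SD, n = 885) at single-direction sites, 38.6% ± 9.07 (SD, n = 729) at the weaker entries at divergent promoters, and 34.3% ± 8.75 (SD, n = 2560) at the midpoints of all head-to-head pairs. GC content thus moved with strength, and its part in the word counts that follow was not tested.

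Among short words searched on both strands, GGGCGG was found in 26 of the 234 windows, or 11.1% (7.39 to 15.9), and in 12 of the 31 in the optimal set (38.7%, 21.9 to 57.8). Its share was 12.5% (5.88 to 22.4) at the 72 single-direction sites of the optimal set, 6.55% at all single-direction sites, 1.92% at weaker divergent entries and 2.85% at midpoints of pairs. The share at the 234 sites depended on the window, with 2.99% within 25 bp of the summit and 17.5% within 100 bp. The palindrome TTGCAA was in 12 of the 31 windows (38.7%, 21.9 to 57.8) and in 11.97% of all 234. It was in 16.7% (8.92 to 27.3) of single-direction sites of the optimal set, 5.42% of all single-direction sites, 6.86% of weaker entries and 6.21% of midpoints. The word GCGCGC was in 10 of the 31 windows (32.3%, 16.7 to 51.4), 7.69% of all 234 and 15.3% (7.88 to 25.7) of the single-direction sites of the optimal set. TTGCAA can overlap the TGC of the arrangement. GGGCGG can contain its GCGG only where the base just before GCGG is G. That was so in 1 of the 30 copies of the arrangement at the 234 sites, so GGGCGG seldom held the GCGG of a copy.

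GTTCGA, part of the B box of tRNA gene promoters, was in 34.1% of windows at small RNA genes. At the divergent sites it was in 7 windows (2.99%, 1.21 to 6.07) and in none of the 31 of the optimal set (upper limit 11.2%), close to the 3.28% of midpoints. The A/T-rich word ATTTTT was in 41.5% (35.1 to 48.1) of the sites and 55.6% (53.7 to 57.6) of midpoints. The rule kept the sites away from tRNA genes, so a low count of GTTCGA was fixed by the choice of sites.

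A scan of 3-letter parts separated by 0 to 12 bases was run on the sites of chromosomes I, III and V. Of 26496 combinations seen, ranked by the difference in percent between the sites and the weaker divergent entries, GCG, then 7 bases, then TGC came first, in 36 of 153 windows (23.5%) against 18 of 435 weaker divergent entries (4.14%). On chromosomes II, IV and X, which the scan did not use, it was in 13 of 81 windows (16.0%) against 13 of 294 weaker entries (4.42%) and 6.34% of single-direction sites. The letters were then extended to GCGG, 6 bases and TGC after the sequences had been seen, so what follows is a description.

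The arrangement was within 50 bp of the summit at 27 of the 234 sites, or 11.5% (7.74 to 16.3), and at 14 of the 31 sites of the optimal set, or 45.2% (27.3 to 63.97). It was at 3.16% (2.11 to 4.54) of single-direction sites and 15.3% (7.88 to 25.7) of the 72 of those in the optimal set. The share was 1.23% (0.566 to 2.33) at weaker divergent entries, 1.13% (0.760 to 1.62) at midpoints of all head-to-head pairs and 0.559% (0.0677 to 2.00) at small RNA genes. Chromosomes I, III and V, with 18 of 153 sites (11.8%), and II, IV and X, with 9 of 81 (11.1%), had like shares. The letters were extended after the sequences had been seen, so the like shares are not a check on unused chromosomes.

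The count depended on the spacing of the parts. In the optimal set, 1 of 31 windows (3.23%) held them with 5 bases between and 1 with 7, but 7 (22.6%, 9.59 to 41.1) with 4 and 4 (12.9%) with 3. Over all 234 sites the shares were 1.28% with 5 bases, 1.71% with 7 and 5.13% with 4. Either of the spacings of 4 and 6 was present at 35 sites, 17 of them in the optimal set. At the 72 single-direction sites of the optimal set, the shares were 15.3% with 6 bases, 0% with 4, and 5.56% with 3 and with 5. The letters and the 6-base spacing had been chosen on strong divergent sites, so the higher count at 6 bases is not an independent check.

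**Figure D4:**
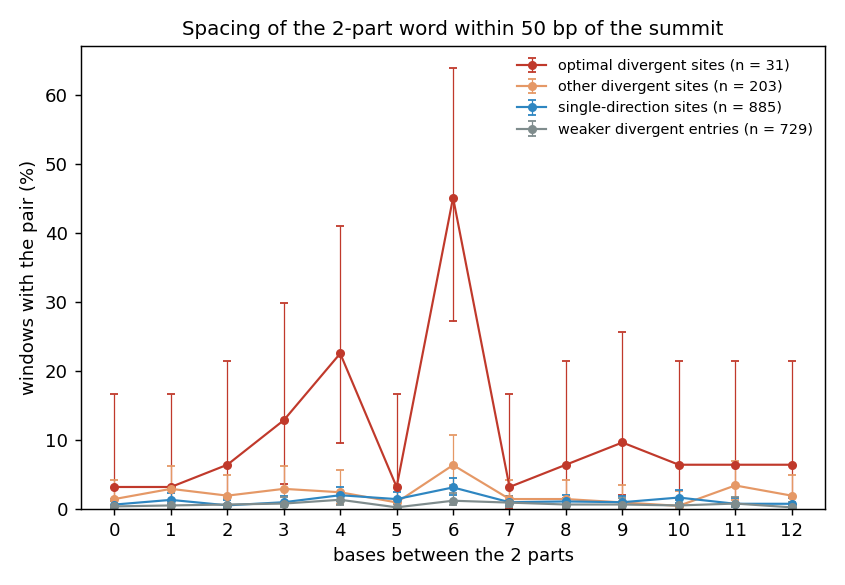
Percent of windows within 50 bp of the summit that hold GCGG and TGC, in this order on either strand, against the number of bases between them, for divergent sites in the optimal set (red, n = 31), other divergent sites (orange, n = 203), single-direction sites (blue, n = 885) and weaker divergent entries (grey, n = 729); bars are exact 95% intervals. The red line peaks at 6 bases (45.2%), with a lower rise at 4 (22.6%). The letters and the 6-base spacing were chosen on strong divergent sites. The 72 single-direction sites of the optimal set, with 15.3% at 6 bases, are not drawn apart.

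Because the arrangement was found in these sites by contrast with weaker entries, the strength of the 27 sites that hold it is given as a description only. Their median signal was 93.3 (median rank 346), against 57.2 (median rank 1677) for the other 207. A match in both replicates was present at 26 of 27 (96.3%) and 139 of 207 (67.1%), beside 94.1% of all entries in ranks 1 to 371, 76.8% in ranks 372 to 1000 and 63.8% in ranks 1001 to 2000. The others were not all weak, and 17 of the 31 sites in the optimal set had no copy. Among these were rpl-15/K11H12.8 and K01G5.10/tasp-1, whose windows are printed above. The median distance from the summit to the nearer 5′ end was 133 bp with the arrangement and 131 bp without it.

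There were 30 copies at the 27 sites, 18 on the plus and 12 on the minus strand. None was on X, but only 9 of the 234 sites lay there, and 11.5% of all sites held the arrangement. The median distance from the centre of a copy to the summit was 14 bp, and 25 of the 30 lay within 25 bp. Outside the letters searched, the copies also had letters in common. Counting the first G of GCGG as position 1, C followed it at position 5 in 24 of 30 copies, T stood at position 10, just before TGC, in 25, and A at position 16 in 22. The base at position -2, with no position 0, was G in 25 of 30. These preferences are seen in the printed stretches, most of which read GCGGC and TTGC.

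Seen from the genome, GCGG, 6 bases and TGC occurred 4116 times on the nuclear chromosomes, and 106 copies (2.58%) had a summit of the 4000 strongest entries within 50 bp. Of the 136 copies between head-to-head 5′ ends, 36 had one (26.5%, 19.3 to 34.7), against 70 of 3980 elsewhere (1.76%, 1.37 to 2.22). With 7 bases between the parts the share between head-to-head 5′ ends was 3 of 77 (3.90%, 0.811 to 10.97), and with 5 bases 7 of 76 (9.21%, 3.78 to 18.1). With 4 and 3 bases it was 14 of 148 (9.46%, 5.27 to 15.4) and 12 of 82 (14.6%, 7.80 to 24.2). Most copies of the arrangement in divergent promoters were therefore not at a strong entry. The letters and the 6-base spacing had been chosen on strong divergent sites, so the higher share there is not an independent check.

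**Figure D5:**
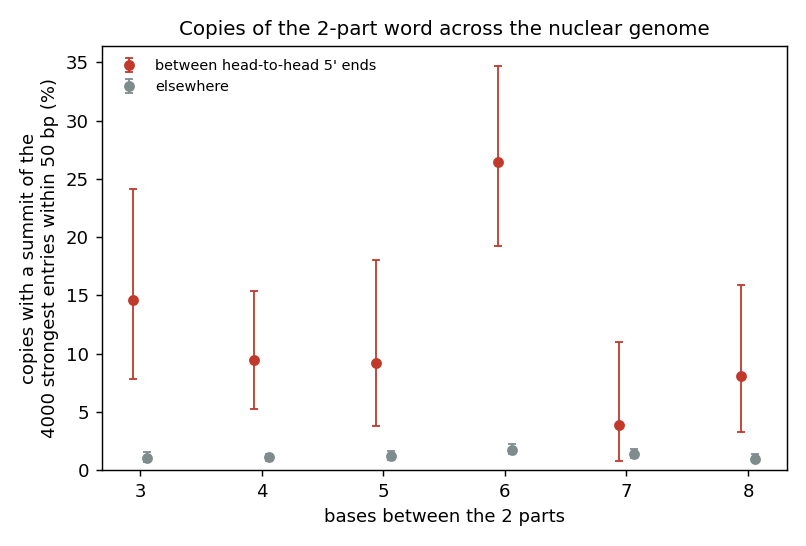
Percent of genomic copies of GCGG and TGC with a summit of the 4000 strongest pooled entries within 50 bp, against the number of bases between the parts, for copies between head-to-head 5′ ends (red) and elsewhere (grey); bars are exact 95% intervals. The red point is highest at 6 bases (26.5%), and the grey points stay near 1 to 2%. The letters and the 6-base spacing were chosen on strong divergent sites.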

How the data were processed

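Per the labels, FLH-1 ChIP-seq was made from 2 biological replicates in build ce11. The authors deposited lists of entries for the pooled and the separate replicates and an optimal set. The values used are the signal that the authors' peak caller computed for each entry before the files were deposited. Its scaling, the aligner, the caller settings and the depth were not given in the sources used here. Per the labels the pooled and the separate lists are peaks and background meant as input for a reproducibility test, so most of the 30000 entries of a list are weak. Entries were ranked by signal and placed on Ensembl release 115 (WBcel235) gene 5′ ends with Python 3.11.15, pandas 2.3.3 and SciPy 1.17.1; sequence came from the RefSeq genome. The code was tested on simulated sites. Replicates were matched by summits within 100 bp. No p-value was computed, since there is 1 group and the signal chose the sites. Named sites were the 12 strongest and those of listed genes, 1 of the 12 not being reported here; for a gene with several sites the strongest is given. Members, gene lists and words were chosen with earlier results of these data known; the chemoreceptor list was corrected after its genes were seen. Alternatives changed the rank limit, promoter, 5′ ends, small RNA distance, matching distance, window and replicate.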

Additional observations from a re-analysis of the deposited data

How the results depend on the processing

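With the 2000 strongest entries in place of 4000, there were 148 divergent sites, 79.1% were matched in both replicates, 51.4% were among the 4000 strongest of both, 20.9% were in the optimal set, 25.1% of promoter sites were divergent and 5.35% of head-to-head pairs had a site. With promoters of 500 bp upstream there were 136 sites, 16.7% of promoter sites were divergent and 5.04% of pairs had a site. With the 5′ ends of all coding transcripts 18.2% of promoter sites were divergent. Matching within 50 bp gave 46.2% supported in both replicates, and within 200 bp 81.2%. Sites taken from 1 replicate's list alone, leaving out the other replicate, numbered 186 to 230, with a match in both replicates for 54.3% to 61.3%, among the 4000 strongest of both for 33.0% to 40.9%, divergent among promoter sites for 18.2% to 21.6%, and a site at 6.60% to 8.13% of pairs. The sites from the replicate 1 list matched 166 of the 234 and those from the replicate 2 list, without replicate 1, 108; 75 were shared, 32.6% of the replicate 1 sites and 40.3% of the replicate 2 sites. The share of summits between the 5′ ends stayed from 76.5% to 80.4% in the alternatives run, and keeping small RNA genes 500 bp away gave 229 sites. The arrangement of GCGG and TGC was at 5.98% within 25 bp of the summit and 14.1% within 100 bp; in single-replicate sites, an alternative added after seeing the data, it was at 11.3% and 14.0%. The cause of these shifts was not tested, apart from fewer or more entries by construction. No paired analysis was possible because there is 1 group. Depth is unknown, and no control library was used.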
